A study of Mus musculus with 5 samples.

Results

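The genes described here are 10 genes that prepare peptides for MHC class I molecules: the inducible proteasome subunits Psmb8, Psmb9 and Psmb10, the proteasome activator genes Psme1 and Psme2, the peptide transporter genes Tap1 and Tap2, tapasin (Tapbp), the tapasin-related gene Tapbpl and the aminopeptidase gene Erap1. They were chosen by symbol, and all 10 were found among the 55573 genes of the count tables and passed the filter on low counts. RNA came from the right hemisphere of C57BL/6 female mice that had received GL261 cells, a mouse glioma line carrying a luciferase/mKate2 vector, in the right caudate nucleus-putamen at 7 to 8 weeks of age. UMBO (ultrasound-mediated blood-brain barrier opening) means low-intensity pulsed ultrasound given with intravenous microbubbles, and 2 libraries from UMBO-treated mice were compared with 3 libraries from mice given inVivoPure dilution buffer as vehicle. Treatment sessions were on days 21 and 24, and tissue was taken 24 h after the last session. Mice had been included above a bioluminescence cutoff. The study's methods mention anesthesia for all treated mice and tie the microbubbles to the ultrasound application, and do not say whether vehicle mice received microbubbles. They count a further mouse in this experiment, which was not analysed here.

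Cells show fragments of their own proteins on MHC class I molecules, so that CD8+ T cells can inspect them. The proteasome cuts proteins into peptides, the TAP transporter carries the peptides into the endoplasmic reticulum, tapasin holds class I molecules at the transporter while a peptide is loaded, and ERAP1 trims peptides to length. In cells exposed to interferon gamma, Psmb8, Psmb9 and Psmb10 take the places of the constitutive catalytic subunits Psmb5, Psmb6 and Psmb7, and PSME1 and PSME2 form a cap on the core; this form is called the immunoproteasome. In the resting brain these genes are generally low, and microglia and infiltrating leukocytes are known to express them.

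The 5 libraries held 59736771 to 86164159 counted reads each, and the 10 genes had between 432 and 14804 reads in every library, so counting error was small beside the spread between mice. Brain markers were present in each library, with Snap25 between 824 and 3214 CPM (the read count of a gene scaled to the size of its library, with TMM factors) and Mbp between 2123 and 2537 CPM. UMBO replicate 2 stood apart. A chi-square per gene, for which sampling noise alone gives about 1, lay between 289 and 703 for the 4 pairs of libraries with UMBO replicate 2 and between 55.9 and 122 for the other 6 pairs. Values are therefore given for each library, and the values of the 10 genes and of the gene lists are also given without UMBO replicate 2. The libraries are bulk tissue, in which more cells of a type and more RNA per cell cannot be told apart.

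Psmb9, Tap1, Psmb8 and Tap2 lie side by side within 34.3 kb of chromosome 17 (GRCm38, 34181987 to 34216321), in the MHC region, and Tapbp lies on the same chromosome (33915899 to 33929292). Psme1 (55578123 to 55581529) and Psme2 (55587441 to 55591113) are neighbors on chromosome 14. Psmb10 is on chromosome 8, Tapbpl on chromosome 6 and Erap1 on chromosome 13. In the RefSeq annotation of GRCm38.p6, Psmb9 and Tap1 are transcribed away from each other from start sites with 225 bases between them. The stretch is shown because both genes, which had nearly the same pattern over the libraries, start from it. Read on the Tap1 strand, chr17:34187331-34187555, with capitals for its GC box on the opposite strand, it runs:
Psmb9 to Tap1: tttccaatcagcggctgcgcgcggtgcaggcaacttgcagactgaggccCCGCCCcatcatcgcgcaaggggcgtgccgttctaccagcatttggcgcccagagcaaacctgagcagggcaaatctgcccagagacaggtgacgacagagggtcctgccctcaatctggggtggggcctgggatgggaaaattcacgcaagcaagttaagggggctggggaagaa

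RefSeq promoter windows of 250 bases before to 50 bases after the start were found for 8 of the 10 genes and searched on both strands for 4 sets of letters. The core of the interferon-stimulated response element (GAAA, any 2 bases, GAAA) was present in 2 of the 8 genes (Psme1 and Erap1) and in 3.44% of all 32851 windows. The gamma-activated sequence TTCNNNGAA was present in Psmb8 alone of the 8 and in 8.3% of all windows. The kappa B core (GGGA, any base, TTTCC) was present in 0 of the 8 and 0.411% of windows, and the GC box GGGCGG in 6 of the 8 and 35.7% of windows. These matches describe letters only. The matches to the first and second motif are shown in capitals within 30 bases, each 5′ to 3′ on the strand of its gene, where the Erap1 match spans the start site and the Psme1 match lies after it:
Psmb8: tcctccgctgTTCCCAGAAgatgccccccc
Psme1: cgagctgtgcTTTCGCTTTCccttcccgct
Erap1: ccaccttcacTTTCACTTTCggtcccgggc

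The comparison of UMBO with vehicle asks whether barrier opening alone altered the class I peptide machinery of the tumor-bearing hemisphere. With all 5 libraries in the fit 10 of the 10 genes, against 50.9% of all genes, had log2 fold changes above 0, from 0.56 for Erap1 to 1.80 for Psmb8, with a median of 1.36 against 0.01 over all 23592 genes tested. In the quasi-likelihood test of edgeR 0 of the 10 passed an adjusted p of 0.05 (0% of all genes did), and the adjusted p lay between 0.497 and 0.53. At an unadjusted p under 0.05, again 0 of the 10 passed in edgeR, against 7.37% of all genes (5.3% higher and 2.06% lower), while 3 of the 10 passed at that level in the DESeq2 Wald test, against 11.2% of all genes. In 0 of the 10 genes did UMBO replicates 1 and 2 each exceed all 3 vehicle libraries, against 11.5% of all genes. Instead, all 10 genes were highest in UMBO replicate 2, which held for 40.4% of all genes. Vehicle replicate 2 came next, then UMBO replicate 1, and vehicle replicates 1 and 3 last, an order that 17% of all genes had.

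**Figure D1:**
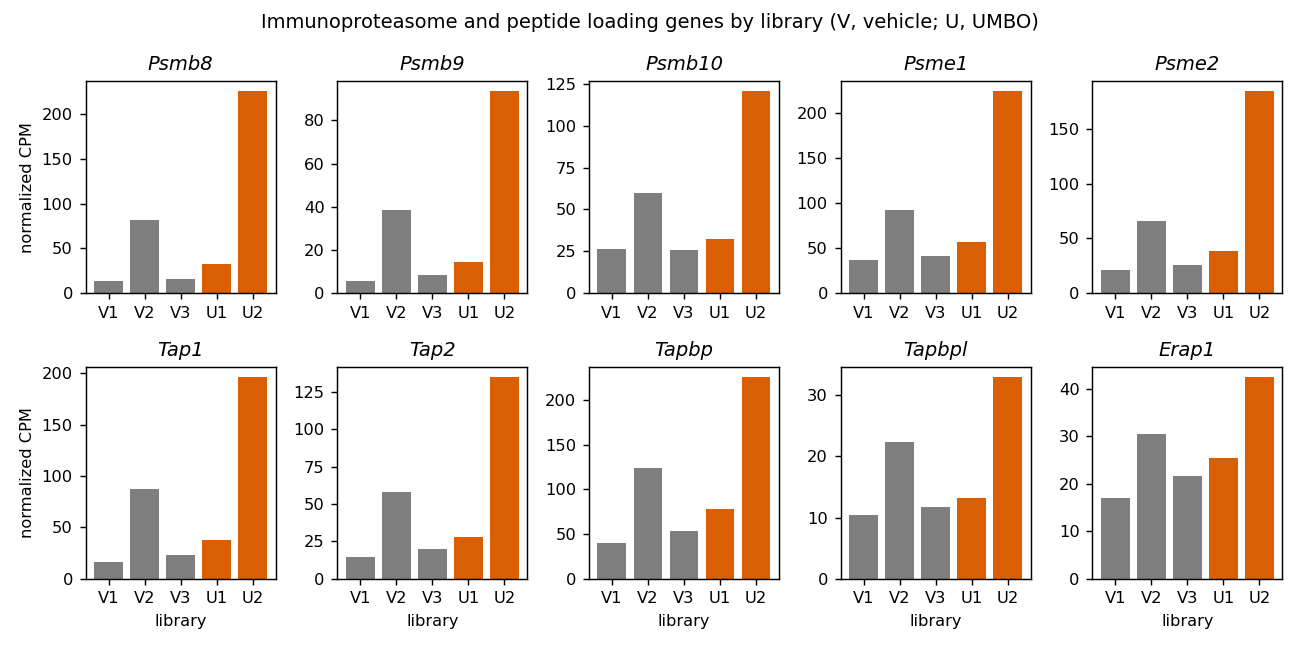
Normalized CPM (vertical axis, from 0, a scale of its own for each gene) of the 10 genes in the 5 libraries (horizontal axis; V1 to V3, vehicle, gray; U1 and U2, UMBO, orange). In all 10 genes U2 is the highest bar and V2 the second, so the groups overlap.

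Psmb8 encodes the inducible subunit with chymotrypsin-like activity. It was at 13.8, 82.0 and 16.0 CPM in the vehicle mice (replicates 1 to 3 in order) and at 32.9 and 226 CPM after UMBO (replicates 1 and 2). Its levels thus ran over a 16.4-fold range, with a vehicle library in second place. The log2 fold change of Psmb8 was 1.80 (standard error 1.04, unadjusted p = 0.134 and adjusted p = 0.497 in edgeR), and it was -0.18 without UMBO replicate 2 and 3.16 without vehicle replicate 2.

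Psmb9, the inducible subunit that replaces Psmb6, followed the same course at lower levels. Its vehicle libraries held 5.78, 38.3 and 8.22 CPM and its UMBO libraries 14.6 and 93.6 CPM. The 16.2-fold range from the lowest to the highest library was close to that of Psmb8. Its log2 fold change was 1.63 (standard error 1.03) and -0.25 without UMBO replicate 2.

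Psmb10, the inducible partner that replaces Psmb7, varied less. It was at 26.3, 60.1 and 25.8 CPM with vehicle and at 32.5 and 121 CPM with UMBO, a 4.68-fold range. UMBO replicate 1 lay 1.25-fold above the mean of vehicle replicates 1 and 3, where Psmb8 lay 2.21-fold above it. The log2 fold change of Psmb10 was 1.04 (standard error 0.623), and -0.20 without UMBO replicate 2.

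Among the activator genes, which encode the alpha and beta subunits of the interferon-inducible cap, Psme1 was at 36.5, 93.0 and 41.1 CPM with vehicle and at 57.3 and 225 CPM with UMBO. Psme2 was at 21.4, 65.9 and 25.3 CPM with vehicle and at 38.6 and 185 CPM with UMBO. These 2 genes had the smallest unadjusted p of the 10 in edgeR (0.0912 for Psme1 and 0.08 for Psme2), and their log2 fold changes were 1.31 (SE 0.651) and 1.57 (SE 0.748). Both values rested on UMBO replicate 2, since without it they were 0.01 and 0.04. Psme2b, a separate gene on chromosome 11 whose reads can be mistaken for those of Psme2, was at 1.44 to 5.19 CPM with vehicle and at 2.66 and 15.8 CPM with UMBO, in the same order of libraries.

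Tap1 and Tap2 encode the partner chains of the peptide transporter. Tap1 was at 16.0, 87.2 and 23.0 CPM with vehicle and at 38.1 and 196 CPM with UMBO. For Tap2 the values were 14.3, 58.3 and 19.8 CPM with vehicle and 27.8 and 135 CPM with UMBO. Vehicle replicate 2 held more of either gene than UMBO replicate 1. The log2 fold change was 1.48 (standard error 0.917) for Tap1 and 1.40 (standard error 0.814) for Tap2, and -0.15 for each without UMBO replicate 2.

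Tapbp encodes tapasin, the bridge between the transporter and class I molecules, and Tapbpl encodes TAPBPR, a related peptide editor that works apart from the transporter. Tapbp was at 39.5, 124 and 53.2 CPM with vehicle and at 78.1 and 226 CPM with UMBO. Tapbpl was at 10.3, 22.4 and 11.8 CPM with vehicle and at 13.2 and 33.0 CPM with UMBO. The 2 genes differed in how far they moved between libraries, over a 5.72-fold range for Tapbp and a 3.19-fold range for Tapbpl. The log2 fold change was 1.08 (SE 0.619) for Tapbp and 0.64 (SE 0.492) for Tapbpl, and without UMBO replicate 2 they were 0.11 and -0.17.

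Erap1, the aminopeptidase that trims peptides in the endoplasmic reticulum, varied least. It was at 17.1, 30.5 and 21.6 CPM with vehicle and at 25.4 and 42.5 CPM with UMBO, a 2.49-fold range. The log2 fold change was 0.56 (standard error 0.329) and 0.14 without UMBO replicate 2.

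**Figure D2:**
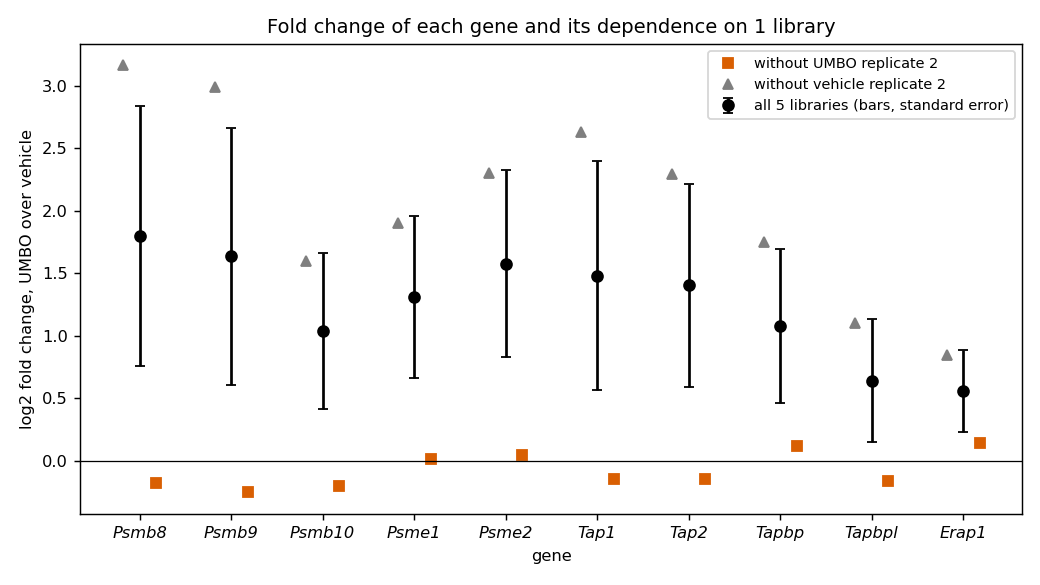
Log2 fold change of UMBO over vehicle (vertical axis) for the 10 genes (horizontal axis): black circles with bars of 1 standard error for all 5 libraries, orange squares without UMBO replicate 2, gray triangles without vehicle replicate 2. The squares lie between -0.25 and 0.14, and each triangle lies above the circle of its gene.

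The size of the group difference therefore depended on single libraries of both groups. Without UMBO replicate 2 the 10 genes had a median of -0.15 on the log2 scale, with 4 of the 10 above 0, against a median of -0.01 over all genes tested. The median was 2.03 without UMBO replicate 1 and 2.10 without vehicle replicate 2. In the fit without vehicle replicate 2, 9 of the 10 genes had an unadjusted p under 0.05 in edgeR, against 11.6% of all genes, and 0 passed the adjusted threshold (adjusted p 0.42 in each of the 10 genes). UMBO replicate 1 lay above vehicle replicates 1 and 3 in all 10 genes, which held for 37.4% of all genes, at 1.19-fold (Tapbpl) to 2.21-fold (Psmb8) the mean of the pair. It lay below vehicle replicate 2 in all 10, at 0.382 (Psmb9) to 0.832 (Erap1) of that library's value.

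In other fits the count of the 10 genes past the test varied widely, as did that of all genes. Leaving out UMBO replicate 1 gave 10 of the 10 at an unadjusted p under 0.05 in edgeR, against 41% of all genes, and 3 of the 10 (Psmb10, Psme1 and Psme2) at an adjusted p under 0.05, against 18.3%. Leaving out vehicle replicate 1, vehicle replicate 3 or UMBO replicate 2 gave 0 of the 10 at an unadjusted p under 0.05, against 1.28%, 1.88% and 1.86% of all genes. With no filter on low counts 8 of the 10 had an unadjusted p under 0.05, against 10.1%. With the replicate number as a block 10 of the 10 had an unadjusted p under 0.05, against 26%, and 7 of the 10 an adjusted p under 0.05, against 9.91%, although nothing in the labels says that the numbers pair the mice.

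Per length of the principal transcript (CPM per kilobase), the activator genes were the most abundant of the 10 in the vehicle libraries, with 51.2 ± 28.2 for Psme1 and 39.0 ± 25.6 for Psme2 (SD, n = 3). After them came Psmb10 at 28.5 ± 15.0, Tapbp at 24.9 ± 15.6 and Psmb8 at 22.9 ± 23.8, then Tap1 at 14.2 ± 13.3, Psmb9 at 12.9 ± 13.4 and Tap2 at 8.96 ± 6.97. Tapbpl at 6.30 ± 2.79 and Erap1 at 4.08 ± 1.21 were lowest. Each neighbor in this order differed from the next by less than the larger of their SDs. These SDs measure the spread between mice and not the order of the genes within a library. In UMBO replicate 2 Psmb8 reached 139 CPM per kilobase and stood above Psmb10 at 92.0, while Psme1 at 202 and Psme2 at 192 remained on top.

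Genes that work as a unit kept closer ratios to each other than their levels varied. Tap1 transcripts per length numbered 1.30 to 1.74 for each Tap2 transcript, Psmb8 transcripts 1.62 to 2.01 for each Psmb9 transcript, and Psme1 transcripts 1.05 to 1.48 for each Psme2 transcript, over libraries in which Psmb8 itself differed 16.4-fold. Across the shared start region, Tap1 transcripts per length numbered 0.961 to 1.28 for each Psmb9 transcript. The ratio of Psmb8 to Psmb10 was less even, at 0.422 and 0.5 in vehicle replicates 1 and 3, 0.813 in UMBO replicate 1, 1.10 in vehicle replicate 2 and, at its highest, 1.51 in UMBO replicate 2. The ratio of Tapbp to Tapbpl ran from 3.10 to 5.56.

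The constitutive counterparts moved less than most of the 10 genes, although the range of Psmb6 was like that of Erap1. Psmb5 was at 23.9 to 34.4 CPM with vehicle and at 30.4 and 52.9 CPM with UMBO, a log2 fold change of 0.57 (standard error 0.292). Psmb6 was at 63.6 to 93.3 CPM with vehicle and at 79.6 and 159 CPM with UMBO (log2 fold change 0.65, standard error 0.335), and Psmb7 at 93.2 to 120 CPM with vehicle and at 112 and 168 CPM with UMBO (log2 fold change 0.40, standard error 0.241). Psme3, whose product forms a nuclear cap that is not part of the immunoproteasome, was at 110 to 127 CPM with vehicle and at 109 and 120 CPM with UMBO. For the large activator Psme4 the log2 fold change was -0.25 (standard error 0.203), the inhibitor Psmf1 one of -0.04 (standard error 0.16), and Pomp, a chaperone of proteasome assembly, one of 0.49 (standard error 0.299). The highest library exceeded the lowest by 1.14-fold to 2.49-fold in these 7 genes and by 2.49-fold to 16.4-fold in the 10 genes, with medians of 1.80 and 7.40 against 2.06 over all genes tested. Without UMBO replicate 2 the log2 fold changes of the 7 lay between -0.17 (Psme4) and 0.12 (Psmb5). None of the 7 had an unadjusted p under 0.05 in edgeR (0 of 7, and 0 adjusted).

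**Figure D3:**
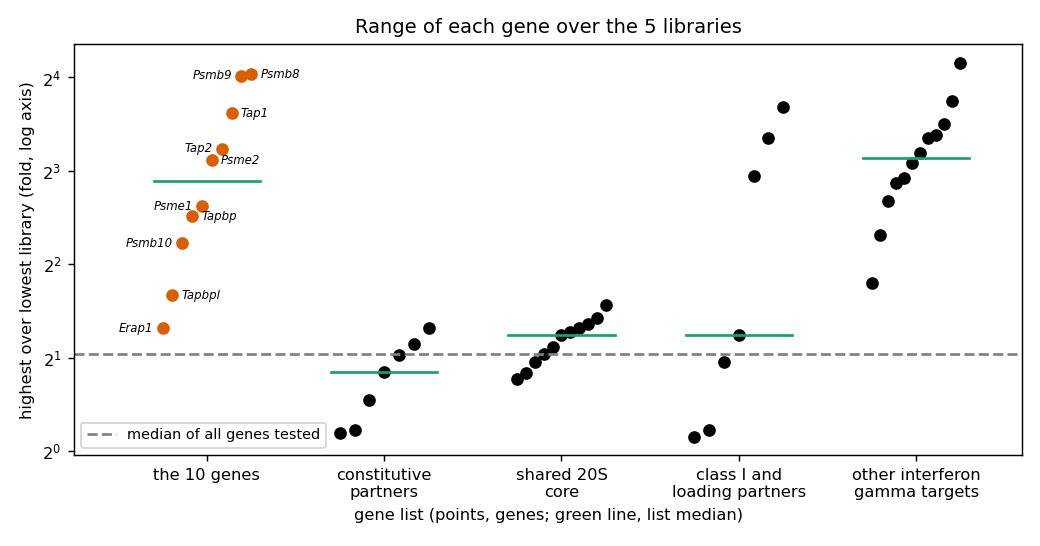
Highest over lowest library in normalized CPM (vertical axis, fold, log axis with base 2) for each gene of 5 lists (horizontal axis); points are genes, green lines list medians, and the dashed line the median of all genes tested, 2.06. Psmb8, Psmb9 and Tap1 reach 16.4, 16.2 and 12.3, and the 11 shared core subunits lie between 1.71 and 2.97.

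Because an inducible subunit takes the place of a constitutive one, each pair was compared within a library, where scaling plays no part. As a share of the transcripts of its pair per length, Psmb8 made up 22.8%, 56.8% and 27.0% of Psmb8 plus Psmb5 in the 3 vehicle mice and 37.4% and 70.2% in the 2 UMBO mice. Psmb8 thus outnumbered Psmb5 in only 2 of the 5 libraries, vehicle replicate 2 and UMBO replicate 2. Psmb9 made up 4.55%, 19.5% and 7.08% of its pair with Psmb6 in the vehicle mice and 9.79% and 25.8% in the UMBO mice. Psmb10 made up 18.1%, 30.7% and 19.7% of its pair with Psmb7 with vehicle and 20.4% and 38.9% with UMBO. These shares depend on the length used: with all annotated exons in place of the principal transcript, chosen after the data were seen, the vehicle mean was 22.1% rather than 35.5% for Psmb8, 9.18% rather than 10.4% for Psmb9 and 39.7% rather than 22.8% for Psmb10, and Psmb8 outnumbered Psmb5 in UMBO replicate 2 only.

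**Figure D4:**
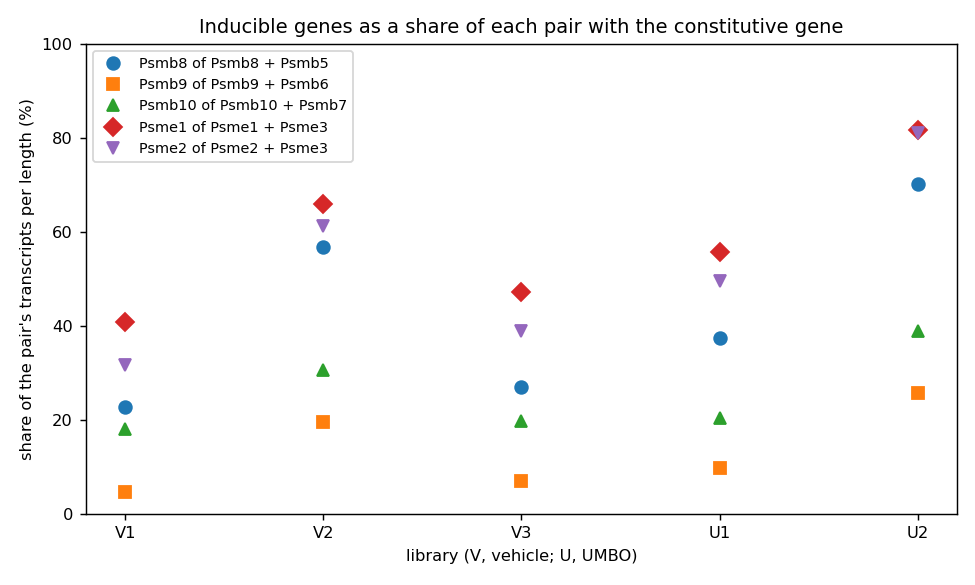
Share of each inducible gene in the transcripts per length (vertical axis, percent) of its pair with the constitutive gene named in the legend, for the 5 libraries (horizontal axis; V, vehicle; U, UMBO). Each share is highest in U2, followed by V2, with Psmb8 at 70.2% in U2 and 56.8% in V2.

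The group difference of the log2 ratio, in which length cancels, was 1.18 for Psmb8 to Psmb5, with -0.08 ± 1.16 for vehicle (SD, n = 3) and 1.10 ± 1.40 for UMBO (SD, n = 2), and the exact permutation p was 0.4. It was 1.02 for Psmb9 to Psmb6 (exact p = 0.4) and 0.49 for Psmb10 to Psmb7 (exact p = 0.5). Against Psme3 it was 1.16 for Psme1 and 1.40 for Psme2 (exact p = 0.3 for each). All 5 differences were smaller than the SD of the UMBO libraries, and the adjusted p over the 5 ratios was 0.5 for each. The differences of Psmb8, Psme1 and Psme2 exceeded the SD of the vehicle libraries, which was 1.16, 0.774 and 0.917. With 3 libraries against 2 there are 10 groupings, so this 2-sided test cannot give a p under 0.1. Without UMBO replicate 2 the differences were 0.19 for Psmb8, 0.18 for Psmb9, -0.17 for Psmb10, 0.25 for Psme1 and 0.34 for Psme2. These are differences between means of log2 values, while the edgeR log2 fold changes compare group levels on the scale of counts. The measures can differ in sign, as for Psmb8, at 0.19 here and -0.18 in edgeR without UMBO replicate 2.

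The 11 subunits of the 20S core that both forms of the proteasome share (Psma1 to Psma7 and Psmb1 to Psmb4) followed the same order of libraries in 11 of 11 genes, against 17% of all genes. Their log2 fold changes had a median of 0.59, with 0 of 11 at an unadjusted p under 0.05 in edgeR. The smallest p belonged to Psmb3 (log2 fold change 0.85, standard error 0.377, unadjusted p = 0.0656) and Psma5 (0.65, standard error 0.322), both structural subunits. Without UMBO replicate 2 the median of the core was 0.05. Of the 9 other cytosolic or endosomal peptidases, 5 had a log2 fold change above 0 and 4 below, where 50.9% of all genes were above. Their median was 0.01 (-0.06 without UMBO replicate 2), with 0 at an unadjusted p under 0.05 in edgeR. Lap3, a leucine aminopeptidase that is interferon-inducible, was the member with the smallest p (log2 fold change 0.69, standard error 0.362), followed by the metallopeptidase gene Nrdc (-0.29).

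Downstream of the 10 genes, the class I heavy chain genes H2-K1 and H2-D1 and the light chain gene B2m had the same order of libraries. H2-K1 was at 79.9, 441 and 141 CPM with vehicle and at 206 and 1024 CPM with UMBO, and B2m at 180, 722 and 270 CPM with vehicle and at 388 and 1385 CPM with UMBO. The log2 fold changes were 1.48 for H2-K1, 1.34 for H2-D1 and 1.18 for B2m, and without UMBO replicate 2 they were -0.10, -0.08 and -0.01. The chaperones of the loading complex spread less: the log2 fold change was 0.69 (standard error 0.321) for Pdia3, Calr one of 0.49 (standard error 0.294) and Canx one of 0.14. Of the 7 genes of this list 6 were above 0, against 50.9% of all genes. At an unadjusted p under 0.05 in edgeR there were 0, and the median of 0.69 was -0.01 without UMBO replicate 2.

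Interferon gamma itself was rare. Ifng had 6, 30 and 23 reads with vehicle and 16 and 42 reads with UMBO, which is 0.0802, 0.445, 0.272, 0.187 and 0.641 CPM. Its log2 fold change was 0.63 (standard error 0.812), and UMBO replicate 1 lay within the range of the vehicle libraries. Among transcription regulators that act on these promoters, Irf1 was at 15.9, 72.3 and 20.2 CPM with vehicle and at 32.9 and 159 CPM with UMBO, and Nlrc5, a transactivator of class I genes, at 11.8 to 41.8 CPM with vehicle and at 23.8 and 87.7 CPM with UMBO. The log2 fold change was 1.41 for Irf1 and 1.22 for Nlrc5, and without UMBO replicate 2 it was -0.14 for Irf1 and -0.49 for Ifng.

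Among the 12 genes of the interferon gamma signal and its regulators, 1 had an unadjusted p under 0.05 in edgeR, against 7.37% of all genes. Of the 12, 0 had an adjusted p under 0.05. Their median log2 fold change was 0.64, or -0.04 without UMBO replicate 2. The 1 gene was the receptor gene Ifngr1, at 17.8, 25.4 and 20.3 CPM with vehicle and at 26.2 and 40.4 CPM with UMBO (log2 fold change 0.65, standard error 0.258, adjusted p = 0.497), and its log2 fold change was 0.31 without UMBO replicate 2. In Ifngr1 and in Ifngr2, the gene of the other receptor chain, UMBO replicates 1 and 2 each exceeded all 3 vehicle libraries. This held for 2 of the 12 genes, against 11.5% of all genes. Irf8, a myeloid transcription factor that acts with IRF1, had the next smallest p (unadjusted p = 0.0573 in edgeR), at 9.64 to 31.4 CPM with vehicle and at 25.3 and 77.2 CPM with UMBO, and its log2 fold change without UMBO replicate 2 was 0.48. Of 12 other interferon gamma targets 11 had a log2 fold change above 0, with a median of 1.18 and 0 at an unadjusted p under 0.05, and the median was -0.32 without UMBO replicate 2. The smallest p in that list belonged to the GTPase genes Irgm1 (log2 fold change 1.39) and Gbp3 (1.14).

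**Figure D5:**
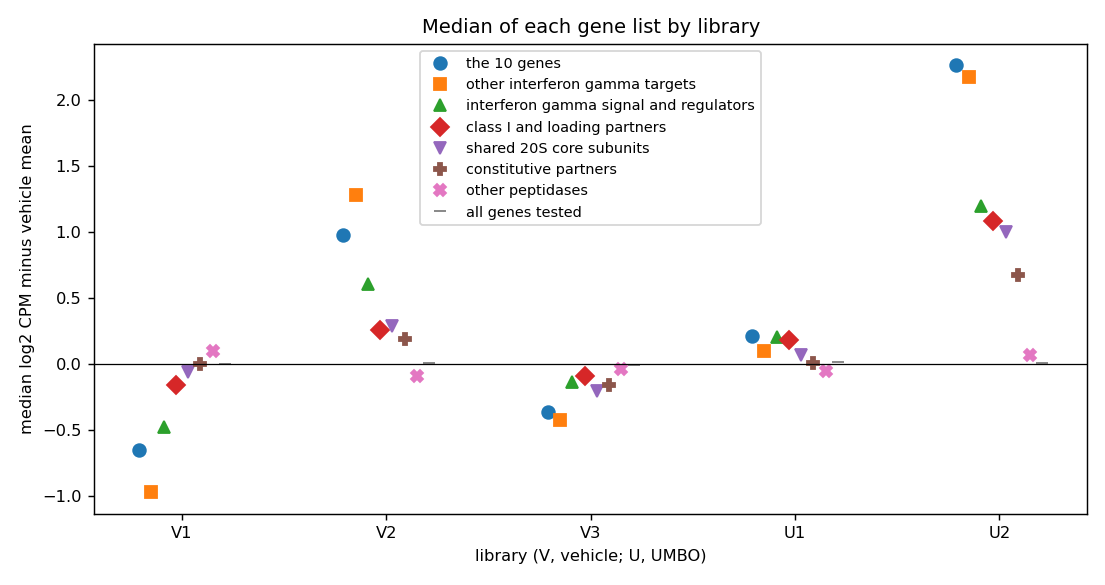
Median over each gene list of log2 CPM minus the mean of the vehicle libraries (vertical axis, log2) in the 5 libraries (horizontal axis; V, vehicle; U, UMBO). The 10 genes lie at -0.66, 0.98 and -0.37 in V1 to V3 and at 0.21 and 2.26 in U1 and U2, next to the other interferon gamma targets, while the other peptidases and all genes tested stay near 0. The vehicle mean is taken on the log2 scale, so U1 lies above 0 although the edgeR median without UMBO replicate 2 was -0.15.

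Over 16432 genes with a mean of at least 1 CPM, the 5 outside the 10 whose centered log2 profile over the 5 libraries was nearest to the median profile of the 10 were Upp1, H2-T22, Rad51b, Nmi and Tgif1, with root mean square differences of 0.0523, 0.0601, 0.0638, 0.0916 and 0.0922 on the log2 scale. H2-T22, a non-classical class I gene, was at 29.4, 94.3 and 35.8 CPM with vehicle and at 49.2 and 216 CPM with UMBO. Nmi, an interferon-inducible gene, was at 5.19, 13.5 and 5.41 CPM with vehicle and at 8.34 and 35.6 CPM with UMBO. Within the 10, Psme2 (0.105), Psme1 (0.116) and Tap2 (0.145) were nearest to their own median profile and Erap1 (0.668), Psmb8 (0.522) and Tapbpl (0.506) farthest from it.

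Marker lists of other cell types also differed between the libraries, and their part in the values of the 10 genes was not tested. The sums of the monocyte and macrophage markers and of the B cell markers had the library order of the 10 genes. The sums of the other lists did not. Of the 4 B cell markers, only 1 had that order by itself. For reading the counts, 7.37% of all genes had an unadjusted p under 0.05 in edgeR (5.3% higher), 17% had the library order of the 10 genes, and 11.5% had both UMBO mice above all vehicle mice. The summed level of 6 monocyte and macrophage markers was 20.5, 87.0 and 39.9 CPM with vehicle and 75.7 and 379 CPM with UMBO. Of these 6 markers 2 had an unadjusted p under 0.05, 3 had the library order of the 10 genes, and the median log2 fold change was 2.23, or 0.10 without UMBO replicate 2. For 6 proliferation markers the sum was 21.7 to 74.5 CPM with vehicle and 79.8 and 329 CPM with UMBO, with 6 of 6 at an unadjusted p under 0.05. Only 1 of these 6 had the library order of the 10 genes and 5 of 6 had both UMBO mice above all vehicle mice, and their median was 1.01 without UMBO replicate 2, where that of the 10 genes was -0.15.

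For 6 microglia markers the sum was 293 to 424 CPM with vehicle and 532 and 663 CPM with UMBO, with 3 of 6 at an unadjusted p under 0.05, 4 of 6 with both UMBO mice highest, 0 of 6 in the library order of the 10 genes and a median of 0.51 without UMBO replicate 2. For 6 endothelial markers it was 118 to 167 CPM with vehicle and 201 and 236 CPM with UMBO, with 4 of 6 at an unadjusted p under 0.05, 5 of 6 with both UMBO mice highest and a median of 0.52 without UMBO replicate 2. For 9 T cell and NK cell markers it was 18.5 to 31.4 CPM with vehicle and 13.3 and 46.1 CPM with UMBO, with 1 of 9 (Ncr1) at an unadjusted p under 0.05, 2 of 9 in the library order of the 10 genes and a median of -0.36 without UMBO replicate 2. Cd4 alone of these 9 had a log2 fold change below 0 (-0.90), at 14.6, 14.0 and 7.31 CPM with vehicle and at 4.56 and 8.31 CPM with UMBO, and it made up most of the sum in vehicle replicate 1.

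The sum of 5 neuron markers went the other way, at 4299 to 6983 CPM with vehicle and 4488 and 2065 CPM with UMBO. Of their log2 fold changes 0 of 5 were above 0, and the median was -0.34 without UMBO replicate 2. Although the sum of UMBO replicate 1 lay within the vehicle range, every vehicle mouse exceeded both treated mice for 4 of these 5 markers. Such a separation was found for 11.4% of all genes. Of 4 B cell markers, which summed to at most 4.31 CPM, 1 had an unadjusted p under 0.05, with a median of 1.12, or -0.11 without UMBO replicate 2. Of the 5 erythroid, 4 dendritic cell, 4 astrocyte, 5 oligodendrocyte and 3 choroid plexus markers, 0 had an unadjusted p under 0.05 (0 adjusted), with medians of 0.62, 0.13, 0.10, -0.04 and -0.35, and without UMBO replicate 2 of 0.51, -0.36, 0.32, 0.09 and -0.04. Both UMBO mice lay above all vehicle mice in 3 of the 5 erythroid markers and below them in 0. Over all genes tested 11.5% had both above. No marker of these lists was at 0 in any library.

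The exons of several of the 10 genes overlap other genes, and whether the counting used strand is not given in the sources used here. Psmb9 and Tap1 share 212 bases of exon on opposite strands, Tap2 shares 533 with Gm15821, Psmb8 shares 498 with Gm20496, Tapbp shares 904 with Gm19412, and Erap1 shares 834 with Cast. Gm15821 and Gm20496 stayed under 0.4 CPM in every library and Gm19412 lay between 1.67 and 4.11 CPM, whereas Cast was at 18.1 to 26.1 CPM, a level like that of Erap1. Tapbp also shares 149 bases of exon with Zbtb22 on the same strand, where counting by strand does not help. The counts of Erap1, Psmb9, Tap1 and Tapbp are uncertain to the extent of these overlaps.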

How the data were processed

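RNA of 5 mouse hemispheres was measured by RNA sequencing. The authors aligned the reads to GRCm38 using STAR 2.7.2a. The deposited values are raw read counts for each Ensembl gene, 1 table per library, not normalized. The annotation release and strand setting of the counting are not given in the sources used here. The labels gave the group and replicate number of each library.

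Of 55573 genes, 55480 were matched to GENCODE M21 (same build). After filterByExpr had dropped low genes, the 23592 left were scaled by TMM and compared in edgeR 4.0.16 under R 4.3.3 (glmQLFTest, p adjusted by Benjamini-Hochberg, threshold 0.05). Standard errors are the log2 fold change divided by the square root of the F statistic. Log2 CPM used a prior count of 2. Total counts lay between 59736771 and 86164159 per library, so the number of mice sets the precision; that the libraries come from separate mice is stated in the series' design. Count ratios within a library were compared with a 2-sided exact permutation test, in which p is the share of the 10 groupings with a difference at least as large in size. Per-length values used the longest APPRIS principal transcript. Promoter sequences are from RefSeq (GRCm38.p6), which had windows for 8 of the 10 genes. Only the edgeR and DESeq2 fits were tested on simulated data.

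The 10 genes and the other lists were chosen with earlier results of these data known. Named were the 10 genes, the 7 constitutive partners, from each other pathway list the 2 with lowest p, Ifng, Irf1, Nlrc5, B2m, H2-K1, H2-D1, Calr and Pdia3, and the 5 genes nearest in profile; 1 other gene of this rule is not reported here. Canx, Ifngr2, Ncr1, Cd4, Psme2b, Snap25, Mbp and genes that overlap the 10 were named after their values were seen. Alternatives were DESeq2 size factors, library size only, 2 other filters, the DESeq2 1.42.0 Wald test, the replicate number as a block and each library left out. A library left alone in its group is assumed to vary like the others.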

Additional observations from a re-analysis of the deposited data

How the results depend on the processing

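The 10 log2 fold changes stayed above 0 under the other normalizations, filters, tool, block and libraries left out, except without UMBO replicate 2, where they were -0.15 for Tap1 and Tap2, -0.17 for Tapbpl, -0.18 for Psmb8, -0.25 for Psmb9 and -0.20 for Psmb10. With each library left out the highest values of these 6 were 2.63 for Tap1, 2.29 for Tap2, 3.16 for Psmb8 and 2.99 for Psmb9 (without vehicle replicate 2), and 1.13 for Tapbpl and 1.66 for Psmb10 (without UMBO replicate 1). The median log2 fold change ranged from -0.15 (without UMBO replicate 2) to 2.10 (without vehicle replicate 2) with each library left out and from 1.02 to 1.48 under the other settings. Library size only moved the median of all genes from 0.01 to 0.13.

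The number of the 10 genes past an adjusted p of 0.05 was 0 and ranged from 0 to 3 (without UMBO replicate 1) with each library left out. At an unadjusted p under 0.05 it was 0, with a range of 0 to 10 with each library left out, at 9 without vehicle replicate 2 and 10 without UMBO replicate 1. It was 8 with no filter on low counts, where 10.1% of 40435 genes passed, and 3 in DESeq2. What causes these shifts was not tested. DESeq2 called 42 of all genes after adjustment and edgeR 0. UMBO replicates 1 and 2 each exceeded all vehicle libraries in 0 of the 10, and in 0 to 10 with each library left out, the 10 being without vehicle replicate 2 or without UMBO replicate 1. With 1 UMBO library left, this asks only whether that library is highest.

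With the replicate number as a block, 7 of the 10 had an adjusted p under 0.05 in edgeR and 10 an unadjusted p under 0.05, where 9.91% and 26% of all genes did. The deviations of same-numbered mice from their group means correlated at 0.453 and 0.76. Only 2 numbers are shared and no label says that they mark a litter or day, so the mice are not treated as pairs.

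With each library left out the difference in log2 ratio ranged from 0.19 to 2.17 for Psmb8 to Psmb5, from 0.18 to 1.86 for Psmb9 to Psmb6, from -0.17 to 1.14 for Psmb10 to Psmb7, from 0.25 to 2.08 for Psme1 and from 0.34 to 2.46 for Psme2. With group medians it was 1.68, 1.35, 0.72, 1.41 and 1.68 in that order. Depth limits Ifng, at 6 to 42 reads, and also the 4 B cell markers, which summed to 0.886 to 4.31 CPM in a library.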
